A study of Mus musculus with 65 samples.

Results

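The 375 hotspots described here are the places on mouse chromosomes 1 to 19 where wild-type testes showed a DMC1 hotspot together with a MEI4 peak and an IHO1 peak. They are called dual hotspots here. Each is an interval of the wild-type DMC1 list that shares at least 1 bp with a peak of the wild-type MEI4 list and with a peak of the wild-type IHO1 list. They are 375 of 13314 autosomal hotspots and of 13808 in all. The wild-type MEI4 list overlapped 11% of autosomal hotspots and the IHO1 list 4.08%. Of the other 12939 autosomal hotspots, 1090 carried a MEI4 peak and no IHO1 peak, 168 an IHO1 peak and no MEI4 peak, and 11681 neither.

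Meiotic recombination begins when SPO11 cuts both strands of DNA at hotspots. In mice the hotspots are chosen by PRDM9, a zinc-finger protein that binds a DNA motif and methylates histone H3 on the nucleosomes around it. SPO11 needs auxiliary proteins. MEI4 and IHO1 belong to them, form foci on chromosome axes before breaks appear, and IHO1 binds HORMAD1. HORMAD1 and SYCP3 are proteins of the axis, the protein core from which chromatin loops extend. Single-stranded DNA left after a break is bound by the recombinase DMC1, so its chromatin immunoprecipitation marks where breaks form. CTCF, an architectural DNA-binding protein, was mapped as well.

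Proteins were mapped by chromatin immunoprecipitation and sequencing in whole testes of a C57BL/6JCrl line of mice. The genotypes used here were wild type, Prdm9KO (B6;129P2-Prdm9tm1Ymat/J), Spo11KO (Spo11tm1Mjn), Mei4KO (Mei4tm1Bdm), Iho1KO (Iho1tm1.2Atot) and Hormad1KO (Hormad1tm1.2Atot), and all are knockouts of the whole animal. Every group, wild type included, came from males fed WIN 18,466, which blocks retinoic acid synthesis, from 1.5 days of age for 7 to 10 days. They then received 1 injection of retinoic acid, and testes were taken 8 days later, when 80 to 95% of the cells were at leptotene and zygotene. Other testis cells therefore contributed to every list, and fewer cells with a protein at a site cannot be told apart from less protein per cell.

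Each protein had 1 list of peaks in each genotype. No difference between genotypes has a replicate check, and the intervals given below cover counting error only, with hotspots treated as independent. SYCP3 was mapped in 1 sample each of Iho1KO, Spo11KO and Prdm9KO, and the other groups whose lists are used here have 2 samples by their labels. The axis and break protein lists have no strength per peak, the depth is unknown, and each protein's lists share 1 control, its own knockout. A site without a listed peak is therefore a site not called, and not a site shown to lack the protein.

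The sequences shown are those of the dual hotspots that wholly contained a promoter window, here the 250 bases before an annotated start site, with no transcribed part of the same coding gene. They are the letters of hotspot DNA that could be read, since no genome of the files' build was used here. Sequences and coordinates are RefSeq, assembly GRCm38.p6, 5′ to 3′ on the strand of the gene, and each belongs to a lncRNA. The GNTGCTNCT core, the motif associated with the PRDM9 allele of C57BL/6 mice, was searched on both strands. A match would be in capitals, and none of these windows held one. Of all 32851 promoter windows of this length, 5.63% held a match, as did 99 of the 1520 windows inside an autosomal hotspot (6.51%) and 2 of the 22 inside a hotspot of the upper 10% by DMC1 value. The absence says only that these letters are not in these 250 bases.
Gm46165, chr1:154103613-154103862, plus strand: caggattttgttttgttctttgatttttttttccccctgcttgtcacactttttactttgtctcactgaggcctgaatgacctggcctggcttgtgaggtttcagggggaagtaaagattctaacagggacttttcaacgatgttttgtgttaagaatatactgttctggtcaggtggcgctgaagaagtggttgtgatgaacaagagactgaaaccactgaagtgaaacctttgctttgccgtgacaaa
Gm31195, chr1:13846250-13846499, plus strand: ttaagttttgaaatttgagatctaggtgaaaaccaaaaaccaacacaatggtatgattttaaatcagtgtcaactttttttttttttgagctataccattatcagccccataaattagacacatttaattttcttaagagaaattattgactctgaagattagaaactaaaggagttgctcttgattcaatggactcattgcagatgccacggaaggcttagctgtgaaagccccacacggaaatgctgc
5730405A17Rik, chr8:61428129-61428378, minus strand: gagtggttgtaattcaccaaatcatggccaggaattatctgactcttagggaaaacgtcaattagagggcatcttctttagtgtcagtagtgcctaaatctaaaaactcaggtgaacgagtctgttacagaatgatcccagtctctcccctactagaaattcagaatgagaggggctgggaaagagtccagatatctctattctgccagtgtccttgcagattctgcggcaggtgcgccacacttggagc

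The Gm46165 window, of 42.4% G and C, lay 392 bp from the centre of its hotspot and inside 2 annotated lncRNAs, Gm46165 and LOC108167736. This hotspot had a DMC1 value of 8698.5 and was in 11 of the 19 protein lists that the rule did not use. The Gm31195 window, of 34.8% G and C, lay 485 bp from the centre of a hotspot with a value of 3143 in 9 lists. The 5730405A17Rik window, of 46% G and C, lay 38.5 bp from its hotspot's centre, within the span of the protein-coding gene Sh3rf1. That hotspot had a value of 3513 and was in 7 lists. All 3 sites carried MEI4 and IHO1 in Spo11KO and Hormad1KO, and wild-type HORMAD1 and SYCP3.

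Dual hotspots were strong hotspots. The DMC1 value is a signal the authors deposited without naming its unit, and it describes the choice of hotspots, so it carries no test. Its median over dual hotspots was 3513, with the middle 50% between 2506 and 5076 and a range of 57 to 20822.5. The median was 1188 at hotspots with MEI4 and no IHO1, 3186.75 at the 168 with IHO1 and no MEI4, and 104 at those with neither. The upper 5% of autosomal hotspots by value held 300 of the 375, and the upper 10% held 357 (95.2%). Dual hotspots made up 45.1% of the upper 5% and 8.56% of the next class of 5%. MEI4 without IHO1 followed the opposite order in these classes, with 161 hotspots in the first and 353 in the second. Among the 100 hotspots with the highest values, 89 had an IHO1 peak, 66 a MEI4 peak and 60 both.

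**Figure D1:**
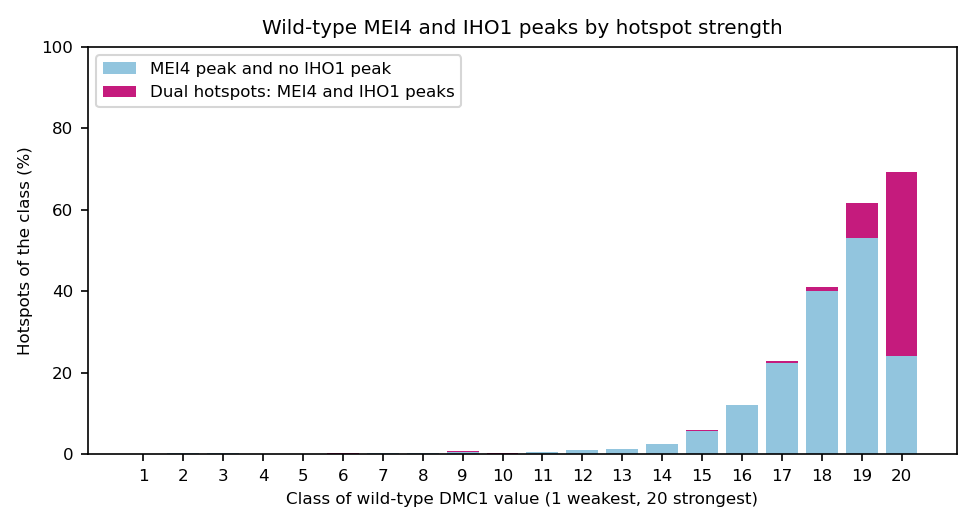
Share of autosomal hotspots (y axis, percent) with wild-type MEI4 and no IHO1 and with both proteins, in 20 equal classes of wild-type DMC1 value (x axis, class 20 the strongest, 665 or 666 hotspots each). Both shares were near 0 in the lower classes, and dual hotspots reached 45.1% in class 20 against 8.56% in class 19.

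The strongest dual hotspot, chr11:89610453-89613094 in the gene Ankfn1, had a DMC1 value of 20822.5, the highest of all. It was followed by chr2:38136483-38138890 in Dennd1a with 20513.5, and chr1:68487799-68490366 in Erbb4, a receptor tyrosine kinase gene, with 18961. The next were chr1:67961107-67963650 with 18266.5 and chr2:98107401-98109376 with 17661.5, both outside protein-coding genes. All 5 had wild-type HORMAD1 and SYCP3. The Ankfn1 site was not in either Spo11KO list of MEI4 and IHO1, and the Dennd1a site was not in the MEI4 lists of Iho1KO and Hormad1KO. The weakest were chr9:124040404-124042000 with 57, chr6:85288919-85291408 in Sfxn5 with 57.5, and chr9:123983910-123985745 in Ccr1l1 with 76.

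Near the limit of the rule, 5 of the 375 had an overlap of under 100 bp with one of the proteins, while the median of the smaller overlap was 1859 bp. The smallest was 5 bp with an IHO1 peak, at chr16:26959689-26961820 in Gmnc (DMC1 value 2011.5). It was 19 bp at chr9:50305076-50307166 (2145) and 56 bp at chr18:35328856-35330713 in Sil1 (1400.5). Just outside were hotspots with MEI4 that missed an IHO1 peak by 3 bp (chr9:107051045-107053078 in Dock3, 2072.5), by 16 bp (chr12:55322134-55324203 in Prorp, 3174) and by 24 bp (chr2:80352773-80354808 in Dnajc10, 3731.5). In all, 23 hotspots with MEI4 lay within 1 kb of an IHO1 peak without touching it.

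Other hotspots were set beside the dual ones at like DMC1 value: all 12939 other autosomal hotspots, and the 1090 with MEI4 and no IHO1. The 168 with IHO1 and no MEI4 are among the 12939 and were not compared on their own. Whether a difference belongs to dual hotspots or to any hotspot with IHO1 was therefore not tested. Hotspots were cut into 20 equal classes of DMC1 value, and the comparison share was weighted so that each class counted as it does among dual hotspots. For the MEI4 hotspots this used the 372 dual hotspots in classes that both kinds shared. A difference is called where its 95% interval excluded 0. Since dual hotspots were also stronger than the others within the top class, 10 classes and, after the data were seen, 50 classes were tried as well. Several differences were smaller with finer classes. Values are given where the call changed and for some of the differences that changed in size.

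Both axis proteins were listed more often at dual hotspots than at other hotspots of like DMC1 value in the wild type. HORMAD1 had a wild-type peak at 281 of 375 dual hotspots (74.9%, Wilson 95% interval 70.3 to 79.1), against 4.66% of all autosomal hotspots. Other hotspots of like DMC1 value reached 47.0%, a difference of 27.9 percentage points (21.9 to 33.9). Hotspots with MEI4 and no IHO1 reached 39.9%, a difference of 34.8 points (27.2 to 42.5). SYCP3 had a peak at 331 of 375 (88.3%, 84.6 to 91.1; 7.56% of all autosomal hotspots). The weighted shares were 69.1% and 70.3%, with differences of 19.2 points (14.5 to 23.9) and 17.9 points (11.7 to 24.1). All 4 differences were called with 10, 20 and 50 classes, but their size depended on how finely strength was matched. Against other hotspots, the HORMAD1 difference was 48.5 points with 10 classes and 21.9 points (15.8 to 28.0) with 50, and the SYCP3 difference 36.8 and 14.7 points (9.95 to 19.4). Against MEI4 hotspots, HORMAD1 gave 53.0 points with 10 classes and 31.9 points (22.3 to 41.5) with 50, and SYCP3 35.3 and 13.9 points (6.21 to 21.6). In a 500 bp window at the hotspot centre the SYCP3 differences were 30.0 and 28.1 points.

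Both axis proteins were at 261 dual hotspots (69.6%), against weighted shares of 42.7% at other hotspots and 35.3% at MEI4 hotspots without IHO1. Unweighted, 2.01% of other hotspots had both. SYCP3 without HORMAD1 was at 70 dual hotspots, HORMAD1 without SYCP3 at 20, and neither at 24 (6.4%). Whether the 2 proteins met more often than their separate shares imply was not tested. Of MEI4 hotspots of like value without IHO1, 25.1% had neither, a difference of -18.6 points. Over the alternatives this difference ran from -36.8 to -14.1 points. Without weighting for strength, an excess was also seen chromosome by chromosome. Within the upper 10% of hotspots, the HORMAD1 share was 269 of 357 (75.4%) at dual hotspots and 116 of 514 (22.6%) at MEI4 hotspots without IHO1, and it was higher at dual hotspots on 19 of 19 chromosomes. For SYCP3 the shares were 318 of 357 (89.1%) and 281 of 514 (54.7%), again in the same direction on 19 of 19. Against all other hotspots of the upper 10%, HORMAD1 was higher at dual hotspots on 19 chromosomes, and SYCP3 was higher on 18 and lower on 1. These shares are not weighted for strength within the upper 10%.

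**Figure D2:**
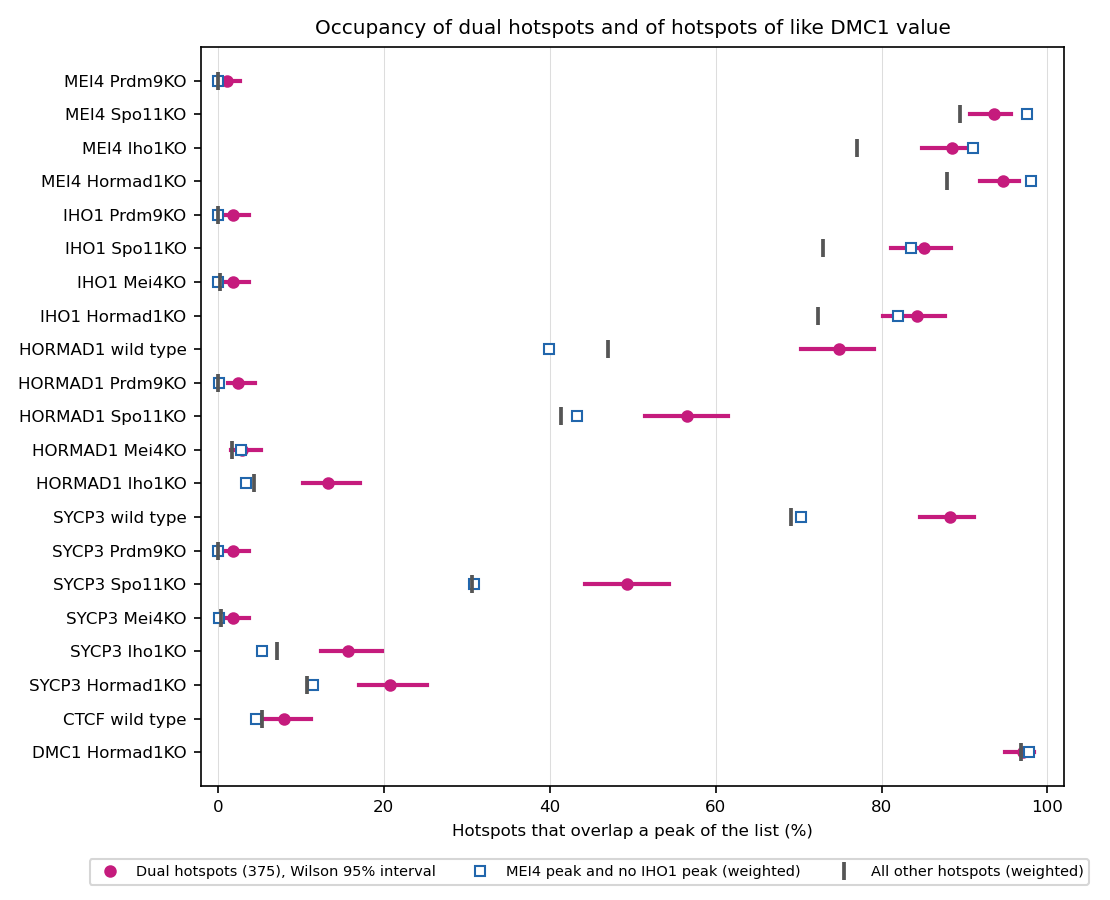
Percent of hotspots that overlap a peak of each list (x axis) for the 375 dual hotspots with Wilson 95% intervals, and the weighted shares of hotspots with MEI4 and no IHO1 and of all other hotspots of like DMC1 value. The gap was widest for wild-type HORMAD1, 74.9% against 39.9% and 47.0%, and the Prdm9KO and Mei4KO lists sat near 0 for every kind of hotspot.

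MEI4 peaks were listed at most dual hotspots in the knockouts of Spo11, Iho1 and Hormad1. All 375 have a wild-type MEI4 peak by the rule, so a lower count in a knockout is not a finding of change. The counts were 351 in Spo11KO (93.6%, 90.7 to 95.7; 27.8% of all autosomal hotspots), 332 in Iho1KO (88.5%, 84.9 to 91.4; 19%) and 355 in Hormad1KO (94.7%, 91.9 to 96.5; 27.1%). A MEI4 peak was present in all 3 at 306 dual hotspots, and in none at 2. Another 28 lacked one in Iho1KO alone. These joint counts were not set beside those of other hotspots, so they only describe the set. Against MEI4 hotspots without IHO1, which the rule also gives a wild-type MEI4 peak, the share in Iho1KO differed by -2.10 points (-6.72 to 2.51), which is not called. With 50 classes this difference was -5.00 points (-9.57 to -0.42) and was called. The shares in Spo11KO and Hormad1KO were lower at dual hotspots by small amounts, -3.49 points (-6.63 to -0.359) and -3.11 points (-5.97 to -0.24), and neither was called with 50 classes. In the wider 50% of each list both changed sign, to 2.27 and 2.48 points, and were not called. Against all other hotspots of like value, the shares were higher by 4.15 points (0.669 to 7.62) in Spo11KO, 11.4 points (6.80 to 16.1) in Iho1KO and 6.76 points (3.35 to 10.2) in Hormad1KO, and most of those hotspots have no wild-type MEI4 peak. The Spo11KO difference was not called under 4 alternatives, among them 10 classes, at 2.55 points (-0.387 to 5.49). In the wider 50% of each list the Spo11KO and Hormad1KO differences were 10.4 and 11.1 points.

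IHO1 peaks were also listed at most dual hotspots without SPO11 or HORMAD1. They were found at 319 in Spo11KO (85.1%, 81.1 to 88.3; 14.6% of all autosomal hotspots) and at 316 in Hormad1KO (84.3%, 80.2 to 87.6; 12.7%), with 276 in both and 16 in neither. The counts in both and in neither were not set beside those of other hotspots. At MEI4 hotspots that had no wild-type IHO1 peak, IHO1 was listed almost as often in these knockouts. Weighted to like DMC1 value, the shares there were 83.6% in Spo11KO, a difference of 1.39 points (-4.38 to 7.16), and 82.0% in Hormad1KO, a difference of 2.96 points (-2.88 to 8.80). Unweighted, they were 742 and 677 of 1090. Over the alternatives the Spo11KO difference ran from -1.60 to 6.70 points. Against all other hotspots the differences were 12.1 points (7.04 to 17.1) and 11.9 points (6.84 to 17.0), the latter 18.1 points with 10 classes. Only 168 of those 12939 hotspots have a wild-type IHO1 peak, which the rule gives to every dual hotspot. In the wild-type IHO1 list the rule puts every dual hotspot in and every MEI4 hotspot without IHO1 out. Neither knockout list gave a called difference between them. It was called in Hormad1KO with 10 classes, where it was 8.00 points (2.96 to 13.0), and in the wider 50% of that list, where it was 11.3 points.

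Without MEI4, few dual hotspots were listed for any protein. IHO1 had a peak at 7 in Mei4KO (1.87%; 0.293% of all autosomal hotspots), HORMAD1 at 11 (2.93%; 2.04%) and SYCP3 at 7 (1.87%; 1.11%), and 17 were in at least 1 of the 3 lists. The differences from other hotspots of like value were 1.22 points (-0.922 to 3.37) for HORMAD1 and 1.52 points (-0.0675 to 3.10) for SYCP3, which are not called, and 1.63 points (0.0538 to 3.21) for IHO1, a call that 5 alternatives removed. The HORMAD1 list of Mei4KO was long, with 5193 autosomal peaks, of which 4920 lay away from hotspots. Of its 11 dual hotspots, 6 had a CTCF peak, as did 30 of all 375.

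Without IHO1 or HORMAD1, the axis proteins were listed at a minority of dual hotspots. In Iho1KO, HORMAD1 was at 50 (13.3%, 10.3 to 17.1; 1.43% of all autosomal hotspots) and SYCP3 at 59 (15.7%, 12.4 to 19.8; 6.56%), with 32 carrying both. In Hormad1KO, SYCP3 was at 78 (20.8%, 17.0 to 25.2; 1.46%). In Spo11KO the counts were larger, 212 for HORMAD1 (56.5%, 51.5 to 61.5; 5.3%) and 185 for SYCP3 (49.3%, 44.3 to 54.4; 5.95%), with 138 carrying both. All of these shares were above those of other hotspots of like value, by 8.91 points (4.98 to 12.8) and 8.55 points (4.19 to 12.9) in Iho1KO, 9.98 points (5.02 to 14.9) in Hormad1KO, and 15.2 points (8.68 to 21.7) and 18.7 points (12.2 to 25.1) in Spo11KO. The HORMAD1 difference in Spo11KO was 28.3 points with 10 classes and 8.21 points (1.52 to 14.9) with 50, and the SYCP3 difference in Hormad1KO was 6.57 points (1.05 to 12.1) with 50. The counts carrying both proteins were not set beside those of other hotspots.

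Against MEI4 hotspots without IHO1, those 5 differences were called with 20 classes and only that of HORMAD1 in Iho1KO with 50, at 6.97 points (1.03 to 12.9). With 50 classes HORMAD1 in Spo11KO changed from 12.9 to -0.13 points (27.5 with 10 classes), SYCP3 in Spo11KO from 18 to 7.29, SYCP3 in Iho1KO from 10 to 5.66 and SYCP3 in Hormad1KO from 8.92 to 1.26 (14.6 with 10 classes). Of the 281 dual hotspots with wild-type HORMAD1, 170 had it in Spo11KO and 39 in Iho1KO. A further 42 had HORMAD1 in Spo11KO and 11 in Iho1KO without a wild-type peak. All 4 proteins were listed in Spo11KO at 116 dual hotspots, and MEI4 with IHO1 at 307. These joint counts were not set beside those of other hotspots.

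Peaks differed in extent as well as in number. In the wild type, the peaks of IHO1, HORMAD1 and SYCP3 reached past the hotspot, whose median width was 2186 bp. A position 2 kb from the hotspot centre was covered, averaged over both sides, at 72.1% of dual hotspots by IHO1, 65.9% by HORMAD1, 82.1% by SYCP3 and 28.5% by MEI4. In Spo11KO the same position was covered at 5.73% by IHO1, 2.80% by HORMAD1, 2.93% by SYCP3 and 5.47% by MEI4, while the hotspot centre was covered at 83.7%, 56.0%, 49.3% and 93.6%. Spo11KO peaks thus lay over the hotspot itself, and wild-type peaks extended beyond it.

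The difference held within single hotspots. Coverage was summed in base pairs within 5 kb of the centre, for dual hotspots with a peak in both lists. For HORMAD1, 170 hotspots had a median of 5886.5 bp in the wild type and 2017.5 bp in Spo11KO, and 165 were wider in the wild type. For SYCP3 the medians over 176 hotspots were 5884.5 and 2005.5 bp, with 167 wider in the wild type. For IHO1 they were 4560 and 2002 bp over 319 hotspots, with 283 wider in the wild type. MEI4 showed the smallest step, 2955 against 2223 bp over 351 hotspots, 262 of them wider in the wild type. The wild-type lists of MEI4 and IHO1 entered the rule, which favours broad peaks there. The HORMAD1 and SYCP3 lists did not enter it, but their wild-type coverage was also larger at dual hotspots than at MEI4 hotspots without IHO1. The medians where a peak was listed were 5653 against 4727 bp for HORMAD1 and 5479 against 4366 bp for SYCP3, not matched for strength. Whether the choice of hotspots raised them was not tested.

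In Iho1KO the axis proteins were also narrow. HORMAD1 covered 6643 bp in the wild type and 2449 bp in Iho1KO at 39 dual hotspots, and SYCP3 6801 and 1836 bp at 57. The step was also seen at MEI4 hotspots without IHO1, not matched for strength. At 23 of those, SYCP3 covered 4771 bp in the wild type and 1479 bp in Iho1KO, and the wild type was wider at all 23. SYCP3 in Hormad1KO differed: it covered 5172 bp against 6383 bp in the wild type at 75 dual hotspots, and was listed at 20.3% of dual hotspots at the centre and 15.3% at 2 kb. IHO1 in Hormad1KO was narrow, at 2127.5 bp against 4628 bp in the wild type over 316 hotspots. Whether the peak threshold or the depth of each list had a part in these widths was not tested. Away from hotspots, the median width of HORMAD1 peaks was 2114 bp in the wild type and 1583 bp in Spo11KO, and at all hotspots 4799 and 1740 bp. For SYCP3 these medians were 1734 and 1579 bp away from hotspots, and 4407.5 and 1698 bp at them. In Iho1KO the medians away from hotspots were 1593 bp for HORMAD1 and 1187 bp for SYCP3, and at all hotspots 2034 and 1258.5 bp. The Iho1KO list of SYCP3 came from 1 sample.

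**Figure D3:**
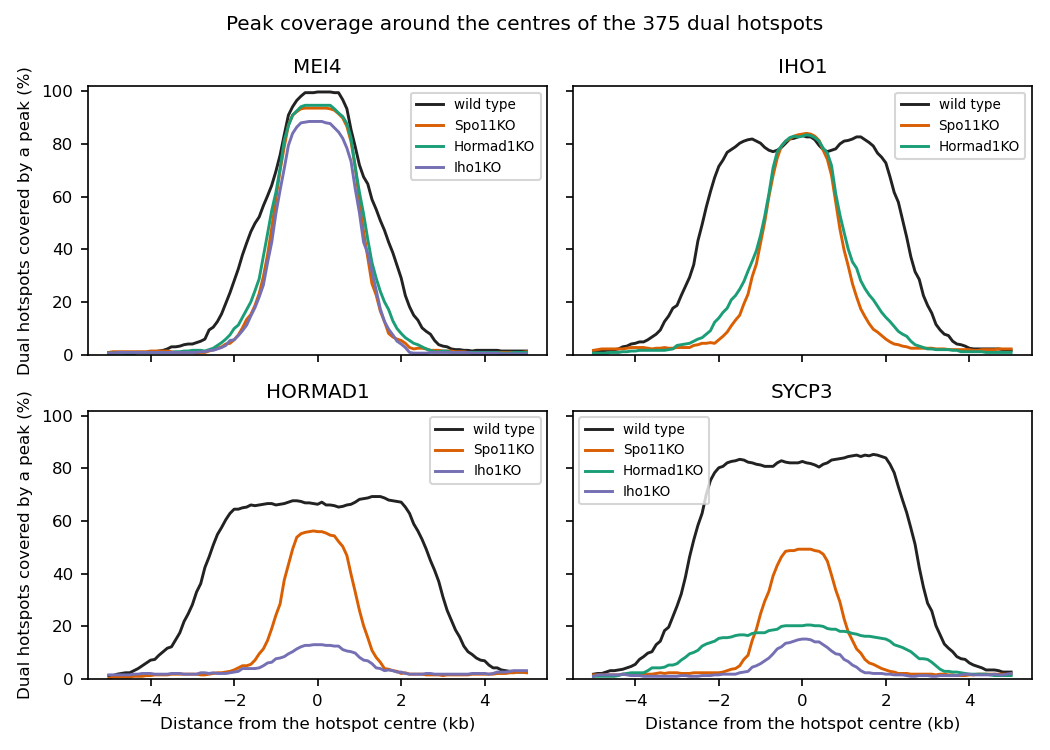
Percent of the 375 dual hotspots covered by a peak (y axis) at each distance from the hotspot centre (x axis, kb), for 4 proteins in the wild type and in the knockouts where more than 11 dual hotspots had a peak. At 2 kb, wild-type SYCP3 covered 82.1% and Spo11KO SYCP3 2.93%.

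Axis peaks were also narrower in Spo11KO at wild-type MEI4 hotspots without IHO1, which were weaker hotspots and were not matched for strength here. HORMAD1 covered 5287.5 bp in the wild type and 1896.5 bp in Spo11KO at 56 of them, and SYCP3 4764 and 1755.5 bp at 114. The wild type was wider at 52 of the 56 and at 111 of the 114. MEI4 peaks were not narrower in Spo11KO there. They covered 1792.5 bp in the wild type and 1865.5 bp in Spo11KO at 1028 of these hotspots, with the wild type wider at 468 and Spo11KO at 560. Whether the step differed in size between these and dual hotspots was not tested.

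Wild-type IHO1 did not always cover the hotspot centre. Its peaks covered the centre at 312 of the 375 (83.2%), lay on both sides of it and not over it at 19, and on 1 side at 44, and 42 dual hotspots had more than 1 IHO1 peak. In Spo11KO, 314 of the 319 with IHO1 had the centre covered (98.4%). The median distance from peak centre to hotspot centre was 485.5 bp for wild-type IHO1, 425 bp for HORMAD1, 278.5 bp for SYCP3 and 234.5 bp for MEI4. In Spo11KO these distances were 166.25, 148, 168.5 and 131.5 bp. Every median was smaller in Spo11KO, as was every median peak width.

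Inside the set, occupancy followed strength in some lists and not in others. In 4 equal groups by DMC1 value, from 57 to 2505.5 in the weakest to 5085.5 to 20822.5 in the strongest, wild-type HORMAD1 was at 58.5%, 72.3%, 81.9% and 87.1%. HORMAD1 in Spo11KO went from 40.4% to 46.8%, 61.7% and 77.4%, and SYCP3 in Spo11KO from 36.2% to 40.4%, 53.2% and 67.7%. Each group held 93 or 94 dual hotspots. The shares of MEI4 in Iho1KO and IHO1 in Hormad1KO were lowest in the weakest group. MEI4 in Iho1KO was at 73.4% there and at 91.5%, 96.8% and 92.5% in the others, and IHO1 in Hormad1KO at 69.1%, then 87.2%, 94.7% and 86.0%. SYCP3 in Hormad1KO was at 16%, 8.51%, 21.3% and 37.6%. In Iho1KO the axis proteins did not follow strength in this order. HORMAD1 was at 20.2%, 4.26%, 6.38% and 22.6% there, and SYCP3 at 19.1%, 8.51%, 10.6% and 24.7%, with the weakest and the strongest group above the 2 between them.

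**Figure D4:**
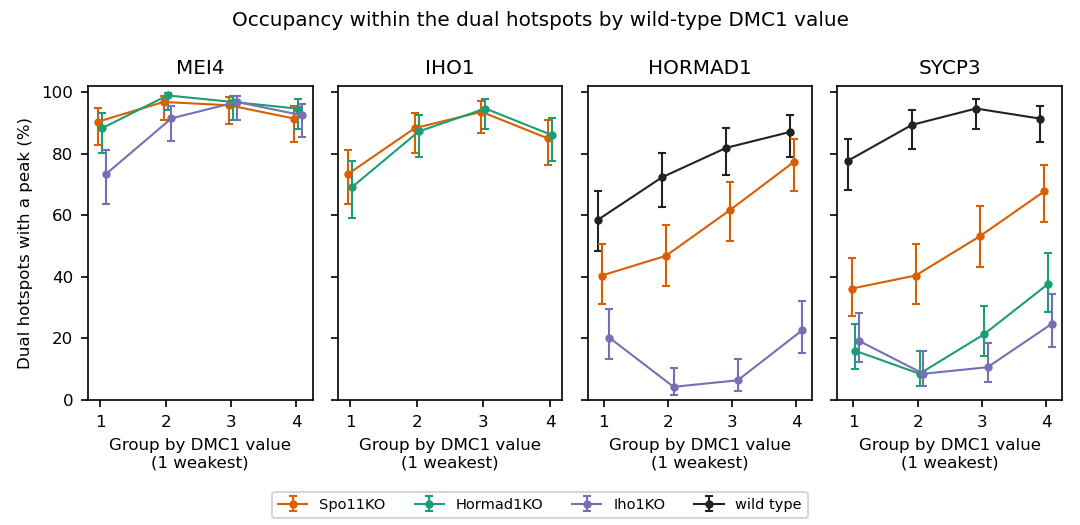
Percent of dual hotspots with a peak (y axis, Wilson 95% intervals) in 4 equal groups by wild-type DMC1 value (x axis, 1 the weakest), for each protein and genotype where more than 11 had a peak. The HORMAD1 and SYCP3 shares in Spo11KO were higher in each stronger group, from 40.4% to 77.4% for HORMAD1.

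The Hormad1KO DMC1 list held 364 of the 375 dual hotspots (97.1%, 94.8 to 98.4; 34.2% of all autosomal hotspots). Their median deposited value there was 421.5, on a scale that cannot be set against the wild-type one. By rank, they lay at a median of 87.9% of the hotspots found in that list. Their mean rank was 84.0%, against 80.4% for other hotspots of like wild-type value (83.1% with 50 classes). Against MEI4 hotspots without IHO1 the difference in mean rank changed sign, from 1.92 points with 20 classes to -1.42 with 50. The share listed was 0.249 points (-1.73 to 2.23) from that of other hotspots of like wild-type value, which is not called. The highest Hormad1KO values were 10257 at Dennd1a, 9403 at Ankfn1 and 8007.5 at chr12:26688334-26690955, the sites ranked 2, 1 and 8 in the wild type.

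A few dual hotspots were listed without PRDM9, and most of these were weak hotspots. MEI4 had a peak at 4 dual hotspots in Prdm9KO (1.07%; 0.0601% of all autosomal hotspots), IHO1 at 7 (1.87%; 0.15%), HORMAD1 at 9 (2.40%; 0.391%) and SYCP3 at 7 (1.87%; 1.1%). In all 10 dual hotspots were in at least 1 of these lists, out of 190 autosomal hotspots, and 4 were in every one. These 4 lay together near the end of chromosome 9, at chr9:123925869-123929020, chr9:123983910-123985745, chr9:124040404-124042000 and chr9:124249322-124251081, with DMC1 values of 229, 76, 57 and 132. Another site, chr9:123020518-123022229 at the promoter of Tmem42, had a value of 107 and was in the other 3 lists.

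Of the 9 dual hotspots below the upper 25% of DMC1 value, 8 were among these 10. Only 2 of the 10 were in the upper 10%, and they were chr3:50905919-50908188 with a value of 2460.5 and chr13:54797857-54799824 with 1765.5. The remaining sites were chr18:20814614-20816883 (419.5), chr17:7863460-7865409 in the lncRNA Gm1604a (108.5) and chr6:85288919-85291408 in Sfxn5 (57.5). Within this set, the weak sites were thus mostly sites with a peak in a Prdm9KO list. The rule admits a weak hotspot only where it has wild-type MEI4 and IHO1 peaks. This describes the set and cannot test a link with DMC1 value. The differences from other hotspots of like value were 1.84 points (0.316 to 3.36) for IHO1, 2.36 points (0.681 to 4.05) for HORMAD1 and 1.83 points (0.308 to 3.35) for SYCP3. Those 3 were not called in the stronger 50% of hotspots, and that for MEI4, 1.07 points (-0.17 to 2.30), was not called. Against MEI4 hotspots without IHO1, the IHO1 difference was 1.25 points (-0.383 to 2.89). For HORMAD1 it was 1.44 points (-0.284 to 3.15) and for SYCP3 1.34 points (-0.291 to 2.98). None of these was called, but with 10 classes those for IHO1 (1.55 points) and SYCP3 (1.61 points) were. All of these intervals treat as independent the 4 neighbouring chromosome 9 sites found in every Prdm9KO list.

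**Figure D5:**
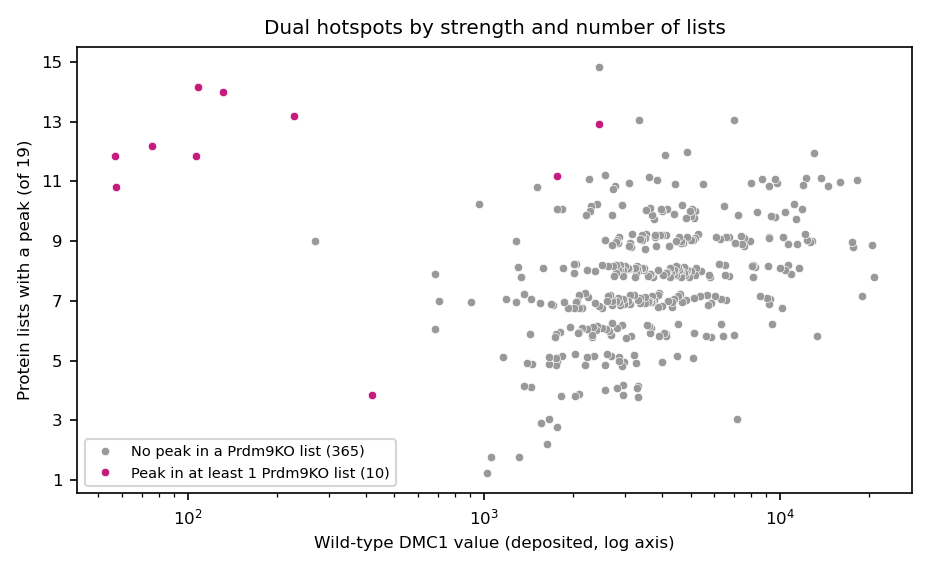
Each point is a dual hotspot, placed by its deposited wild-type DMC1 value (x axis, log scale) and the number of the 19 other protein lists in which it has a peak (y axis, jittered). The 10 with a peak in a Prdm9KO list are mostly at the weak end, and 8 of them lay below the upper 25% of hotspots.

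Dual hotspots had a peak in a median of 8 of the 19 protein lists that the rule did not use, against 5 for hotspots with MEI4 and no IHO1 and 0 for all other hotspots, without weighting for strength. The site in most lists, 15, was chr5:134005477-134007700, with a DMC1 value of 2449.5. It was followed by chr9:124249322-124251081 and chr17:7863460-7865409 with 14 each, and 4 sites were in 13 lists, of which chr14:96952810-96955378 and chr14:54232250-54234433 had the highest DMC1 values. The chr5 site was in all 3 Mei4KO lists and in no Prdm9KO list. The fewest were 1 list, at chr3:8846429-8848694 in Mrps28, a mitochondrial ribosomal protein gene, and 3 sites were in 2 lists, of which chr15:4042210-4044717 in Oxct1, a ketone-body enzyme gene, and chr15:89279883-89281804 in Ppp6r2 had the highest DMC1 values. The sites in Mrps28, Oxct1 and Ppp6r2 had MEI4 in Spo11KO, and neither HORMAD1 nor SYCP3 in the wild type.

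Dual hotspots lay in protein-coding genes less often than other hotspots of like strength. They overlapped a protein-coding gene at 181 of 375 (48.3%, 43.3 to 53.3), against 57.4% of all autosomal hotspots. The weighted share was 60.4% at other hotspots, a difference of -12.2 points (-18.7 to -5.70), and 63.1% at MEI4 hotspots without IHO1, a difference of -14.7 points (-22.6 to -6.74). A lncRNA gene was at 38 (10.1%; 11% of all autosomal hotspots) and a promoter window at 5 (1.33%; 9.04%), with differences from other hotspots of 3.58 points (-0.0836 to 7.24) and -0.047 points (-1.59 to 1.49) that are not called. The promoter windows counted here are 300 bp and run past the start site, unlike the 250 bases shown above. The lncRNA difference, of higher shares at dual hotspots, was called under 5 alternatives, at 3.88 to 4.19 points. CTCF had a peak at 30 (8%, 5.66 to 11.2; 8.61%), which differed by 2.62 points (-0.691 to 5.94) and is not called. It was called under 3 alternatives, at 4.28 points (0.999 to 7.56) in a 500 bp window at the centre, 3.53 points with 50% overlap and 3.33 points in the wider 50% of CTCF peaks. Against MEI4 hotspots without IHO1 the difference was 3.22 points (-0.447 to 6.89), and it was called under 3 alternatives, at up to 4.69 points. Without matching for strength, the nearest CTCF peak was at a median of 28284 bp from dual hotspots, 16745 bp from MEI4 hotspots without IHO1 and 22375 bp from all autosomal hotspots.

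Along the chromosomes, dual hotspots were far apart, with a median gap of 4560731.5 bp between neighbours, and 9 of 356 gaps were under 100 kb. The closest pair was chr4:134472447-134474794 in Stmn1 and chr4:134477016-134478430, with 2221 bp between them, DMC1 values of 4148 and 1515.5, and CTCF at both. The next were a pair at Ttk, a spindle checkpoint kinase gene, on chromosome 9 (10959 bp apart, 13363 and 1190) and a pair in Fat4, a protocadherin gene, on chromosome 3 (49129 bp, 11350 and 5749.5). Within 5 Mb of the farthest peak on their chromosome lay 18 dual hotspots (4.8%, 3.06 to 7.46; 3.77% of all autosomal hotspots), of which 5 were on chromosome 9 and 4 on chromosome 19. The share was above that of other hotspots of like value by 3.33 points (0.875 to 5.78), but without the hotspots in Prdm9KO lists the difference was 2.15 points (-0.0938 to 4.39). Against MEI4 hotspots without IHO1, of which 4.95% lay there without weighting, the difference was 1.28 points (-1.94 to 4.50) and is not called.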

How the data were processed

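Whole-testis chromatin of 65 samples in 36 groups was deposited, and the 24 peak lists analysed are 1 per group. Per the labels' protocols, tissue was fixed in 4% formaldehyde for 15 minutes. Bowtie2, MACS2 and mm10 are named in the submitters' processing notes, and versions are not given in the sources used here. The DMC1 value is a signal column as deposited by the authors, in steps of 0.5, with its unit not named. For MEI4, IHO1, HORMAD1 and SYCP3, the signal of the protein's own knockout was subtracted by the authors, as the design text states. The samples hold no such knockout for CTCF or DMC1. Whether replicates were pooled is not stated.

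Overlap was 1 bp or more. Shares have Wilson 95% intervals. Weighted differences used 20 equal DMC1 classes with stratified 95% intervals, no p-values, and 12 alternatives. Hotspot sets, lists and members were chosen with earlier results of these data known. Named sites were those with the highest and lowest DMC1 values, in most and fewest lists, nearest the rule's limit, highest in Hormad1KO, or in the closest pairs, and a few Prdm9KO sites singled out after their values were seen. Genes and promoters come from RefSeq GRCm38.p6. Scripts (Python 3.11.15, numpy 2.4.6, pandas 2.3.3, scipy 1.17.1, matplotlib 3.10.9) were tested on simulated data. Other groups and CTCF scores were not used here.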

Additional observations from a re-analysis of the deposited data

How the results depend on the processing

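Of 622 alternative values over 54 results, 571 kept their direction and side of the call, where an uncalled value that changed sign (23) counts as kept. All settings kept the wild-type HORMAD1 and SYCP3 differences called. The settings with 50 classes, with peaks reduced to 1 kb and without hotspots in Prdm9KO lists were chosen after seeing the data. Values are percentage points against other hotspots (O) or against MEI4 hotspots without IHO1 (M), and the cause of each change was not tested. Values that became called were all those of CTCF and lncRNA, MEI4 Iho1KO, every IHO1 value under M, and SYCP3 Prdm9KO under M. All others listed lost their call.

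With 10 classes, O gave MEI4 Spo11KO 2.55, and M gave MEI4 Hormad1KO -2.30, IHO1 Prdm9KO 1.55, IHO1 Mei4KO 1.87, IHO1 Hormad1KO 8.00 and SYCP3 Prdm9KO 1.61. With 10 classes and 3 of width, O gave MEI4 Spo11KO 2.66, and M MEI4 Hormad1KO -1.77, IHO1 Mei4KO 1.87 and IHO1 Hormad1KO 6.95. With 50 classes, O gave IHO1 Mei4KO 1.49 and lncRNA 3.90, and M gave MEI4 Spo11KO -1.78, MEI4 Iho1KO -5.00, MEI4 Hormad1KO -3.56, HORMAD1 Spo11KO -0.13, SYCP3 Spo11KO 7.29, SYCP3 Iho1KO 5.66 and SYCP3 Hormad1KO 1.26.

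With a 500 bp window at the centre, O gave SYCP3 Prdm9KO 1.52, CTCF 4.28 and lncRNA 4.15, and M gave MEI4 Spo11KO -2.71, MEI4 Hormad1KO -0.043, IHO1 Mei4KO 1.86 and CTCF 4.69. With 50% overlap, O gave CTCF 3.53 and lncRNA 4.19, and M gave MEI4 Hormad1KO -0.367, IHO1 Mei4KO 1.86 and CTCF 4.10. With peaks reduced to 1 kb, O gave IHO1 Prdm9KO 1.06, HORMAD1 Prdm9KO 1.33 and SYCP3 Prdm9KO 0.767, and M gave CTCF 3.55.

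With the wider 50% of peaks in each list, O gave IHO1 Mei4KO 0.307 and CTCF 3.33. There M gave IHO1 Hormad1KO 11.3, while MEI4 Spo11KO (2.27) and MEI4 Hormad1KO (2.48) reversed. Peaks could be wider at dual hotspots than at other hotspots, as for MEI4 in Spo11KO (median 2223 against 1620 bp). In the stronger 50% of hotspots, O gave IHO1 Prdm9KO 0.783, IHO1 Mei4KO 1.39, HORMAD1 Prdm9KO 1.05 and SYCP3 Prdm9KO 0.796. Without other hotspots within 5 kb, O gave MEI4 Spo11KO 3.42 and lncRNA 3.88. With overlapping MEI4 and IHO1 peaks, O gave lncRNA 4.12. Without CTCF hotspots, O gave MEI4 Spo11KO 3.44 and IHO1 Mei4KO 1.50. Without hotspots in Prdm9KO lists, O gave IHO1 Mei4KO 1.14 and distal position 2.15.

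No paired analysis was possible because there was 1 list per group and its columns carry no replicate, and no replicate was left out for the same reason. Place was not run with the wider 50% of peaks or with peaks of 1 kb. Depth is unknown, so an absent peak is not a measured absence.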
